A study of Macaca fascicularis with 4 samples.

Results

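The genes described here are 6 that mark the white fat cell: ADIPOQ (adiponectin), LEP (leptin), CFD (complement factor D, also called adipsin), FABP4 (fatty acid-binding protein 4), CEBPA (the transcription factor C/EBP alpha) and SLC7A10 (a neutral amino acid transporter). They were taken by name out of 13982 genes with counts, with earlier results of these data known. Of the 6, 5 had at least 1 count, and CEBPA is listed in none of the libraries and was taken as 0. The libraries came from oWAT, sWAT, muscle and liver of the cynomolgus monkey (Macaca fascicularis), with total RNA of 5 monkeys pooled for each tissue. No treatment, diet, age or genotype is given in the labels. The labels do not spell out oWAT or sWAT, and WAT is read here as white adipose tissue. Each tissue is 1 library of full-length cDNA reads, so there are no replicates, every interval covers counting error alone, and no p-value was computed.

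White fat cells store triglyceride and also act as endocrine cells. Adiponectin circulates as multimers and acts on muscle and liver through the receptors ADIPOR1 and ADIPOR2, with T-cadherin (CDH13) as a binding partner at the cell surface. Leptin is secreted in proportion to fat mass and acts on the brain through LEPR. Adipsin is the serine protease that cuts factor B to start the alternative pathway of complement. FABP4 carries fatty acids in the cytosol, C/EBP alpha acts with PPARG to switch on and maintain the fat cell programme, and SLC7A10 carries small neutral amino acids such as serine.

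The counts assigned to genes totalled 396797 in oWAT, 383896 in sWAT, 439872 in muscle and 437587 in liver, and levels are given as CPM, a gene's count per 1000000 of these, without regard to transcript length. A count of 0 does not exclude a low level. A floor of 3 counts was used for it, which is 7.56 CPM in oWAT, 7.81 in sWAT, 6.82 in muscle and 6.86 in liver. Defining genes of muscle fibres and hepatocytes stood where the labels put them: ACTA1 had 0 counts in oWAT, 1 in sWAT, 15827 in muscle and 1 in liver, and ALB had 1, 0, 0 and 61515 in the same order. Summed markers of mesothelium reached 4042 CPM in oWAT and 5.21 CPM in sWAT, and those of fibroblasts 21046 and 66698 CPM.

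Adiponectin marked both fat libraries and left a trace in muscle. ADIPOQ had 915 counts in oWAT, 1117 in sWAT, 43 in muscle and 1 in liver. As levels these were 2306 CPM in oWAT (exact Poisson 95% interval 2159 to 2460), 2910 in sWAT (2741 to 3085), 97.8 in muscle (70.7 to 132) and 2.29 in liver (0.0579 to 12.7). The intervals of the 4 libraries do not overlap, and the order was sWAT, oWAT, muscle, liver. In a pooled tissue library, fewer fat cells and less RNA per fat cell cannot be told apart.

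Leptin counts were few. LEP had 11 counts in oWAT, 21 in sWAT, 1 in muscle and 0 in liver. Its level was 27.7 CPM in oWAT (13.8 to 49.6), 54.7 in sWAT (33.9 to 83.6) and 2.27 in muscle (0.0576 to 12.7). The intervals of sWAT and oWAT overlap, both lie above that of muscle, and liver had no count.

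Of the 5 genes with counts, adipsin had the lowest ratio of oWAT to sWAT, though the interval of that ratio overlaps the one of leptin. CFD had 23 counts in oWAT, 53 in sWAT, 4 in muscle and 0 in liver. Its level was 58.0 CPM in oWAT (36.7 to 87.0), 138 in sWAT (103 to 181) and 9.09 in muscle (2.48 to 23.3). The intervals of sWAT, oWAT and muscle do not overlap.

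FABP4, the lipid carrier, followed adiponectin. It had 292 counts in oWAT, 347 in sWAT, 13 in muscle and 1 in liver. Its level was 736 CPM in oWAT (654 to 825), 904 in sWAT (811 to 1004), 29.6 in muscle (15.7 to 50.5) and 2.29 in liver (0.0579 to 12.7). The fat libraries overlap slightly in their intervals, and both lie far above muscle, which lies above liver.

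SLC7A10 was even between the fat libraries. It had 28 counts in oWAT, 28 in sWAT, 4 in muscle and 0 in liver. Its level was 70.6 CPM in oWAT (46.9 to 102), 72.9 in sWAT (48.5 to 105) and 9.09 in muscle (2.48 to 23.3). The interval of muscle lies below those of both fat libraries.

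CEBPA had 0 counts in oWAT, sWAT, muscle and liver. The exact Poisson 95% upper limits are 9.30 CPM in oWAT, 9.61 in sWAT, 8.39 in muscle and 8.43 in liver. A count of 0 does not show that the gene was silent, since the sources used here do not name the annotation behind the counts, and reads assigned under another name would not be seen. In the RefSeq table of the assembly T2T-MFA8v1.1, CEBPA is the next named protein-coding gene after SLC7A10, followed by CEBPG, which also had 0 counts in the 4 libraries, and by PEPD. PEPD (prolidase) had 103 counts in oWAT, 106 in sWAT, 67 in muscle and 123 in liver, so counts were present on either side of the pair without counts.

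**Figure D1:**
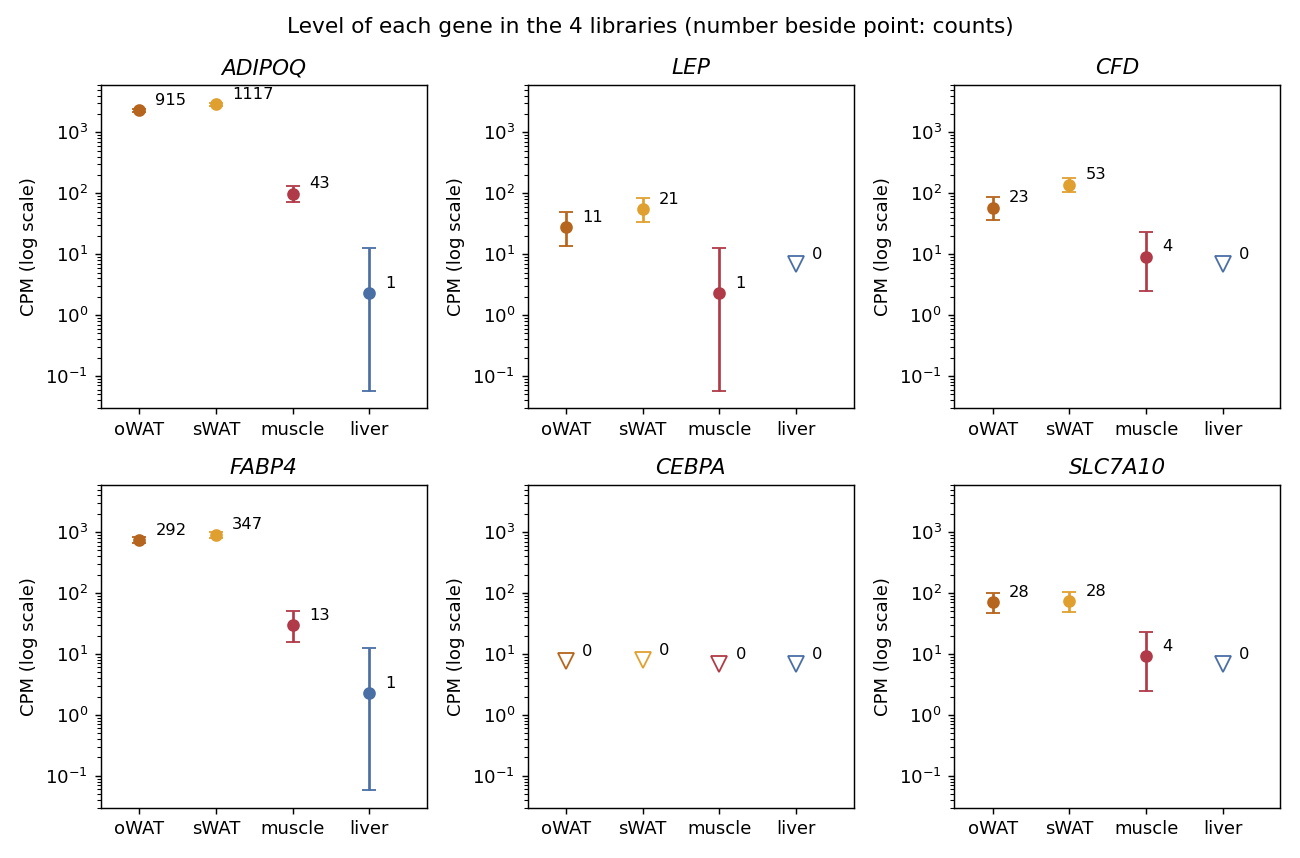
Level of the 6 genes in CPM (log axis) in oWAT, sWAT, muscle and liver, with 1 pooled library each. Circles give the level with its exact 95% Poisson interval and the number of counts beside it, and open triangles give the level of 3 counts where the count was 0. ADIPOQ and FABP4 span oWAT and sWAT at 736 CPM or more and muscle at 29.6 CPM or more, while CEBPA has open triangles throughout.

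Set against muscle and liver, 4 of the 6 genes were higher in both fat libraries, namely ADIPOQ, FABP4, CFD and SLC7A10. To be called, a gene needed 10 or more counts in each fat library and an exact 95% interval of the fold lying wholly above 2, in all 4 pairings of a fat library with muscle or liver. Of all 5520 genes with enough counts in both fat libraries, 233 or 4.22% were called in this way. ADIPOQ was 23.6-fold higher in oWAT than in muscle (17.4 to 32.8) and 29.8-fold higher in sWAT than in muscle (21.95 to 41.4). FABP4 was 24.9-fold higher in oWAT (14.3 to 47.3) and 30.6-fold higher in sWAT (17.7 to 58.0) than in muscle. These folds of the hormone and of the lipid carrier lie within each other's intervals.

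CFD was 6.37-fold higher in oWAT than in muscle (2.18 to 25.4) and 15.2-fold higher in sWAT than in muscle (5.59 to 57.8). SLC7A10 was 7.76-fold higher in oWAT (2.71 to 30.4) and 8.02-fold higher in sWAT (2.81 to 31.5) than in muscle. Both calls rest on 4 muscle counts, and both were lost with TMM (edgeR's trimmed mean) scaling and with DESeq2's size factors, which left ADIPOQ and FABP4 called and brought the count over all genes to 68 and 71. With TMM scaling CFD was 4.31-fold and SLC7A10 5.25-fold higher in oWAT than in muscle.

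LEP was 24.1-fold higher in sWAT than in muscle (3.87 to 995) and passed there, while in oWAT the ratio to the single muscle count was 12.2 with an interval of 1.77 to 525, which misses the bound. Of the 6, LEP and CEBPA were therefore not called, and CEBPA had too few counts to be tested. Against liver, ADIPOQ was 1009-fold higher in oWAT (181 to 39899) and 1273-fold higher in sWAT (228 to 50334), each a ratio to 1 liver count. FABP4 was 322-fold higher in oWAT (57.3 to 12762) and 396-fold higher in sWAT (70.5 to 15667) than in liver, again against 1 count. Where a library had 0 counts, an "at least" fold sets it at 3 counts, and the lower bound of the exact 95% interval, which is smaller, follows in parentheses. CFD was at least 8.45-fold higher in oWAT (6.34) and at least 20.1-fold higher in sWAT (15.8) than in liver. SLC7A10 was at least 10.3-fold higher in oWAT (7.83) and at least 10.6-fold higher in sWAT (8.09). LEP was at least 4.04-fold higher in oWAT (2.77) and at least 7.98-fold higher in sWAT (5.94). The median log2 ratio of the 5 genes with counts, taken for each gene in its smallest pairing with 0.5 counts added, was 3.09, beside -0.22 over the 10127 genes with at least 10 counts in all.

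Between the fat depots, none of the 6 genes reached the same bound in either direction. Of the genes with at least 10 counts in the higher library, 94 of 6563 or 1.43% were called higher in oWAT and 46 of 5997 or 0.767% higher in sWAT. With TMM scaling these counts became 80 and 70, and with DESeq2's size factors 74 and 82. In oWAT all 5 genes with counts lay below their sWAT level. ADIPOQ in oWAT was 0.793 times its sWAT level (0.725 to 0.866), FABP4 0.814 times (0.694 to 0.954) and CFD 0.420 times (0.246 to 0.697), and these 3 intervals lie below 1. LEP was 0.507 times its sWAT level (0.221 to 1.0995) and SLC7A10 0.967 times (0.552 to 1.70), and these intervals include 1.

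Each of the other 4 scalings tried lowers every ratio of oWAT to sWAT by a common factor, so none could turn these directions. ADIPOQ then lay between 0.697 and 0.765, CFD between 0.369 and 0.405, FABP4 between 0.716 and 0.786, LEP between 0.446 and 0.489 and SLC7A10 between 0.851 and 0.934. The median of the 5 log2 ratios was -0.34, against 0.16 over the 8255 genes with at least 10 counts in the 2 libraries together. TMM scaling lowers every log2 ratio of oWAT to sWAT by 0.15 and DESeq2's size factors lower it by 0.18.

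Other fat cell markers did not share one direction. Of 21 such markers with at least 10 counts in a fat library, 6 had an interval above 1 (PLIN1, LIPE, PNPLA2, GPD1, TRARG1 and PCK1), 6 had one below 1 (PLIN4, LPL, CD36, GPAM, PDE3B and LEPR) and 9 included 1. LIPE, hormone-sensitive lipase, was 1.62 times its sWAT level (1.48 to 1.77) and PNPLA2, adipose triglyceride lipase, 1.62 times (1.16 to 2.28). PLIN4, a lipid droplet coat protein, was 0.525 times its sWAT level (0.476 to 0.579) and LPL, which releases fatty acids from lipoproteins, 0.779 times (0.741 to 0.819). With TMM scaling PLIN1 and TRARG1 no longer lay above 1 with their whole interval, and DGAT2 joined those below. The 26 markers together summed to 23264 CPM in oWAT and 25838 CPM in sWAT, a ratio of 0.900 (0.875 to 0.926).

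**Figure D2:**
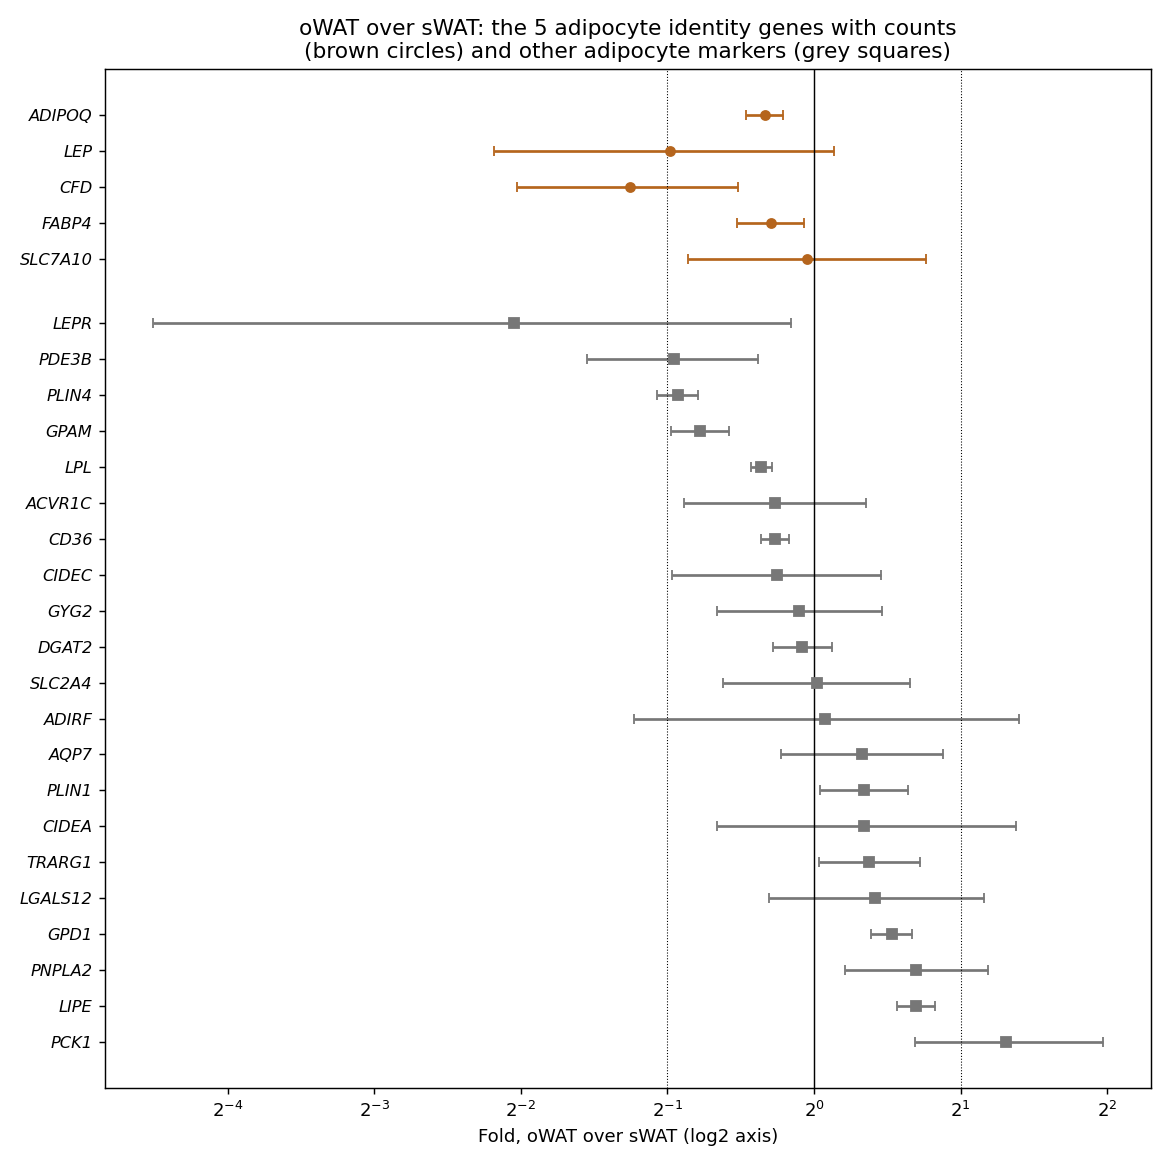
Fold of oWAT over sWAT on a log2 axis for the 5 adipocyte identity genes with counts (circles) and 21 other adipocyte markers (squares), with exact 95% intervals. The solid line marks equal levels and the dotted lines folds of 0.5 and 2. The interval of CFD, centred on 0.420, lies wholly below 1, while LIPE at 1.62 and PLIN4 at 0.525 lie on opposite sides of it.

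Ratios between genes of the same library need no library scaling. Gene length cancels where such a ratio is compared between libraries. For each 100 ADIPOQ counts there were 31.9 FABP4 counts in oWAT and 31.1 in sWAT, a ratio of ratios of 1.03 (exact conditional 95% interval 0.856 to 1.23). LEP stood at 1.20 per 100 ADIPOQ counts in oWAT and 1.88 in sWAT, a ratio of 0.639 (0.277 to 1.40), which the 11 and 21 leptin counts cannot tell from 1. SLC7A10 stood at 3.06 per 100 ADIPOQ counts in oWAT and 2.51 in sWAT, a ratio of 1.22 (0.691 to 2.16). LEP relative to SLC7A10 was 0.524 (0.191 to 1.40). At these counts none of these proportions could be told from equal in the depots, and for LEP and SLC7A10 the intervals are wide.

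Intervals that exclude 1 came from pairs with adipsin. CFD stood at 2.51 per 100 ADIPOQ counts in oWAT and 4.74 in sWAT, a ratio of 0.530 (0.307 to 0.888). Relative to FABP4 the ratio was 0.516 (0.294 to 0.881), and SLC7A10 relative to CFD was 2.30 (1.06 to 5.02). Of the 10 pairs of genes, the interval excluded 1 in these 3. LEP relative to CFD was 1.21 (0.448 to 3.14), so CFD could not be told from LEP, whose ratio to SLC7A10 is of like size but rests on fewer counts. Relative to the sum of the other adipocyte markers CFD was 0.466 (0.273 to 0.775) and ADIPOQ 0.880 (0.802 to 0.966), while FABP4 at 0.904 (0.769 to 1.06), LEP at 0.563 (0.245 to 1.22) and SLC7A10 at 1.07 (0.613 to 1.88) had intervals that include 1.

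CFD is also made by stromal cells of fat. All 8 fibroblast markers had counts in both depots, and their sum in oWAT was 0.316 times that in sWAT (0.308 to 0.323). That sum was carried by the collagen genes COL1A1 and COL3A1, at 0.241 and 0.261 times their sWAT levels. The other 6 did not share a direction: PDGFRA (0.398) and PI16 (0.592) had intervals below 1, DPT (1.33) had one above 1, and LUM (0.8999), DCN (1.07) and CD34 (1.14) had intervals that include 1. Relative to all 8 fibroblast markers CFD was 1.33 (0.778 to 2.21), and relative to the other 6 it was 0.428 (0.249 to 0.713). The part of fibroblasts in the difference was not tested.

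The muscle library held counts of all 5 genes, though LEP had a single count, which is not read as expression. ADIPOQ in muscle was 4.24% of its oWAT level (3.05 to 5.76) and 3.36% of its sWAT level (2.42 to 4.56). FABP4 was 4.02% of oWAT (2.11 to 6.98) and 3.27% of sWAT (1.72 to 5.67), so the pair stood at like shares. In muscle there were 30.2 FABP4 counts per 100 ADIPOQ counts, which relative to oWAT is a ratio of 0.947 (0.461 to 1.83) and relative to sWAT 0.973 (0.474 to 1.87). This is close to the proportion of the fat libraries within a wide interval.

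Shares were larger but poorly counted for the less abundant genes. CFD in muscle was 15.7% of its oWAT level (3.94 to 45.9) and 6.59% of its sWAT level (1.73 to 17.9). SLC7A10 was 12.9% of oWAT (3.28 to 36.8) and 12.5% of sWAT (3.18 to 35.6), and LEP 8.20% of oWAT (0.191 to 56.4) and 4.16% of sWAT (0.1005 to 25.8). Relative to ADIPOQ, muscle against oWAT, the ratio was 3.70 for CFD (0.889 to 11.5) and 3.04 for SLC7A10 (0.741 to 9.25), so neither can be told from the share of adiponectin.

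Other fat cell markers in muscle stood mostly at higher shares. The whole list of 26 summed to 4356 CPM in muscle, 18.7% of oWAT and 16.9% of sWAT, with 18 of the 26 counted. Much of that sum of 1916 muscle counts came from GPD1 (667) and SLC2A4 (317), which are taken up below. Over the 21 markers the median share was 9.84% of oWAT and 9.19% of sWAT, and the value lay above that of ADIPOQ in 15 and 16 of them. The interval lay above that of ADIPOQ in 10 of them against oWAT and in 11 against sWAT, and below it in 0. PLIN1, a droplet coat protein of fat cells, was 10.9% of oWAT (6.94 to 16.4), PLIN4 17.6% (14.4 to 21.4) and CD36 12.1% (10.5 to 13.9). Others lay near ADIPOQ: LGALS12 at 2.26% of oWAT (0.0557 to 13.3), ACVR1C at 4.20% (0.492 to 16.1) and AQP7 at 5.47% (1.45 to 14.7). Their muscle counts were only 1, 2 and 4. Some of the markers are also expressed by muscle fibres: SLC2A4, the insulin-responsive glucose transporter, was 635% of its oWAT level (464 to 889) and GPD1 56.0% (50.8 to 61.8). Of the markers counted in fat, CIDEC, CIDEA, ADIRF, PCK1, ADRB3 and MRAP had 0 muscle counts. For CIDEC, 3 muscle counts would be 8.20% of oWAT and 6.89% of sWAT. TUSC5 and THRSP, the other names at 0 in muscle, had 0 counts in both fat libraries too, and TUSC5 is an older symbol of TRARG1. The summed fibroblast markers in muscle were 86.4% of oWAT and 27.3% of sWAT. Myofibre markers in the fat libraries summed to 80.6 CPM in oWAT with 3 of 8 counted and 93.8 CPM in sWAT with 4 of 8 counted, against 98933 CPM in muscle. The part of fat cells lying within the muscle samples was not tested.

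**Figure D3:**
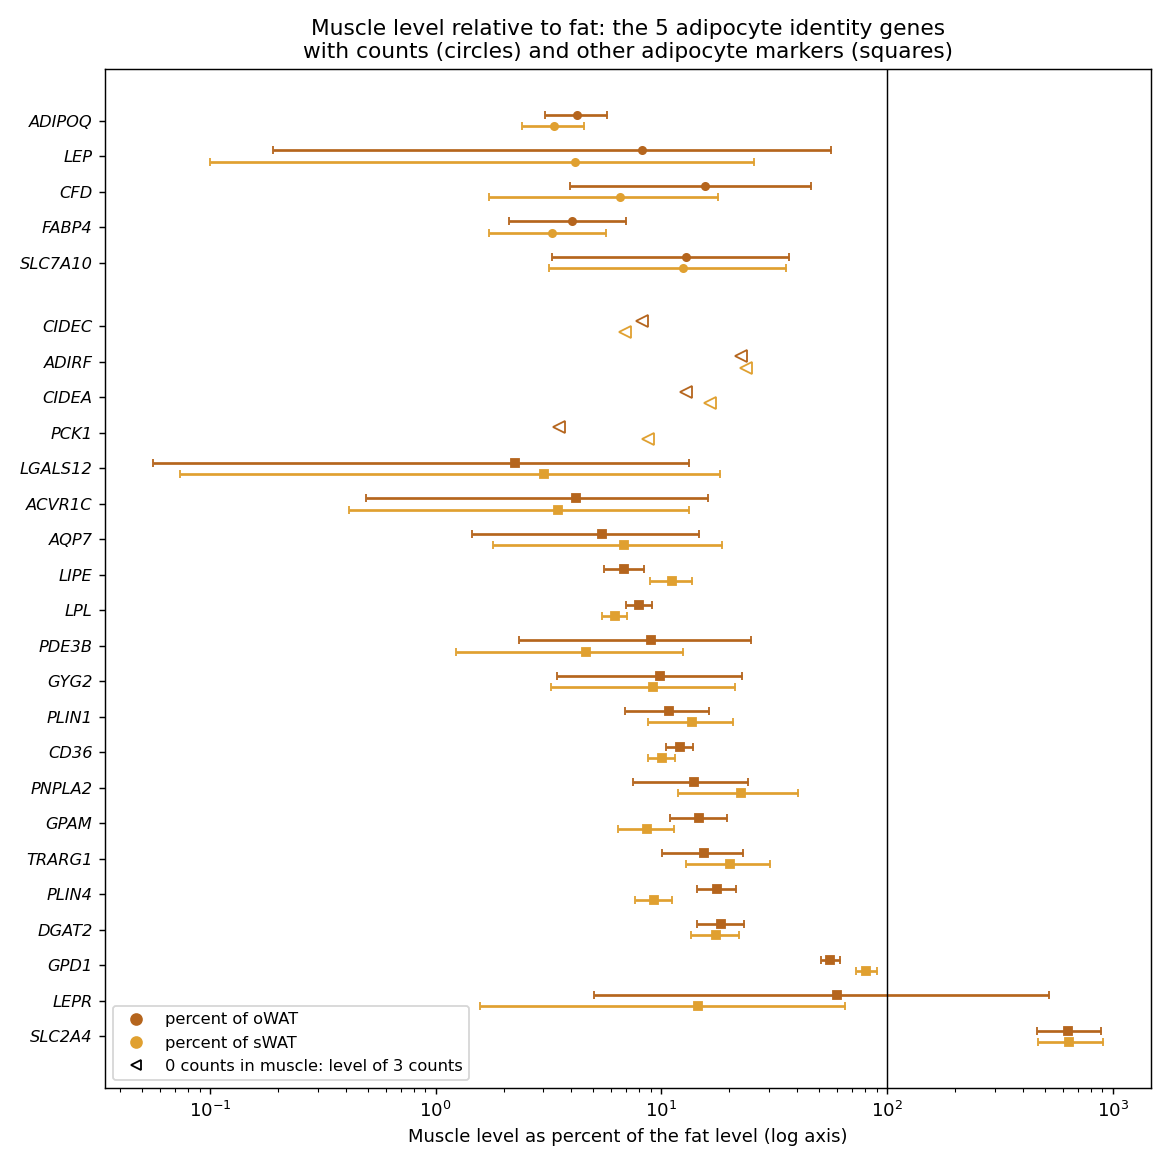
Muscle level as a percentage of the oWAT and of the sWAT level on a log axis, for the 5 adipocyte identity genes with counts (circles) and 21 other adipocyte markers (squares), with exact 95% intervals. Open triangles give the share that 3 counts would make where muscle had 0 counts, and the line marks equal levels. ADIPOQ and FABP4 lie between 3.27% and 4.24%, left of PLIN1 and CD36, and SLC2A4 lies above 100%.

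Liver held 1 count of ADIPOQ, 1 of FABP4 and 0 of the others. The ADIPOQ count corresponds to 0.0991% of oWAT (0.00251 to 0.554) and 0.0785% of sWAT (0.00199 to 0.438). Such single counts also occurred for ACTA1 and ALB outside their own tissues, as given above, so a single count is not read as expression. Muscle was called higher than liver in 1338 of 5809 genes or 23.0%, and ADIPOQ was among them, at 42.8-fold (7.28 to 1728). FABP4, with 13 counts in muscle and 1 in liver, had a ratio of 12.9 (1.94 to 550) and was not called. Fat cell markers absent from liver included PLIN1, CIDEC, CIDEA, TRARG1 and LGALS12, each with 0 counts. The summed adipocyte markers reached 4356 CPM in muscle and 5896 CPM in liver, where 15 of 26 were counted. PCK1 (1325 counts), GPD1 (338) and DGAT2 (300), all of which hepatocytes also use, were the most counted of them in liver.

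The genes most like each of the 5 over the 4 libraries were found from the share of the summed CPM that fell in each library. Among genes with at least 30 counts, FABP4 was nearest to ADIPOQ, with 0.736% of the profile differing, followed by ALDOC (aldolase C) at 1.05% and LPL at 1.76%. For FABP4 the nearest were ADIPOQ, LVRN at 1.59% and ALDOC at 1.70%. For LEP they were EPB41L1 at 0.897%, TNC (tenascin C) at 2.95% and TIMP4 at 3.21%. CFD shared TNC (2.32%) and TIMP4 (3.10%) with LEP, behind ADAMTS15 at 1.79%. For SLC7A10 they were PRKAR2B, a regulatory subunit of protein kinase A, at 1.24%, GYG2 (glycogenin 2) at 2.33% and LAMA4 at 2.45%. ADIPOQ had 43.4% of its summed CPM in oWAT and 54.7% in sWAT, CFD 28.3% and 67.3%, and LEP 32.7% and 64.6%. With 4 libraries and few counts for LEP and CFD, these are descriptions of like shapes.

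**Figure D4:**
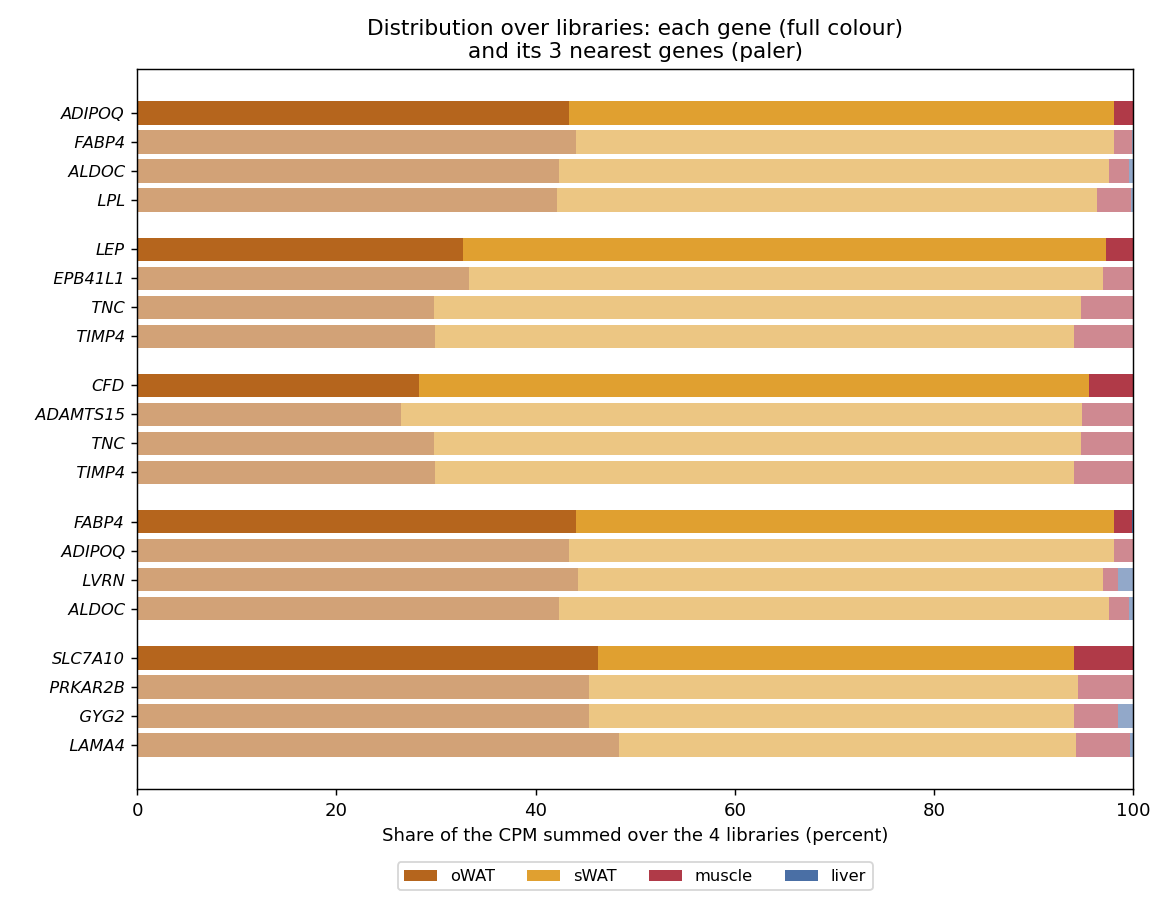
Share of the CPM summed over oWAT, sWAT, muscle and liver that falls in each library, in percent, for the 5 adipocyte identity genes with counts (full colour) and for the 3 genes nearest to each (paler). ADIPOQ and FABP4 place 43.4% and 44.0% in oWAT, against 28.3% for CFD and 32.7% for LEP.

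Partners and relatives of the 6 genes were described by the same calls. With 4.22% of all genes called higher in both fat libraries, counts of 0 in lists of 1 to 13 genes are near the background and are given as descriptions. Among 13 measured genes of adiponectin reception and signalling, 0 were called, with a median log2 ratio of -0.86, beside -0.22 over all genes. ADIPOR1 had 103 counts in oWAT, 53 in sWAT, 282 in muscle and 33 in liver, so muscle was its highest library. In muscle it was 8.50-fold higher than in liver (5.91 to 12.6). ADIPOR2 had 124 counts in oWAT, 154 in sWAT, 68 in muscle and 116 in liver, a flatter pattern. CDH13 had 78 counts in oWAT, 117 in sWAT, 160 in muscle and 0 in liver, and was at least 53.1-fold higher in muscle than in liver (42.7). In muscle over liver 4 of the 13 were called, a share near the 23.0% of genes with at least 10 counts in muscle. Beside ADIPOR1 and CDH13 these were the AMP kinase subunits PRKAA2 (43 counts in muscle, 0 in liver) and PRKAB2 (132 in muscle, 34 in liver), named after their values were seen. LRP1 had 172 counts in oWAT, 234 in sWAT, 50 in muscle and 112 in liver.

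The machinery that folds and releases adiponectin had 0 of 7 measured genes called. Its most counted gene, SEL1L of the endoplasmic reticulum quality control, had 126 counts in oWAT, 138 in sWAT, 65 in muscle and 264 in liver, followed by SYVN1 and VAMP3. ERP44, which retains adiponectin in the cell by a thiol bond, had 37, 15, 17 and 32 in the same order. Of the C1q relatives of adiponectin, 0 of 6 measured genes were called. C1QTNF1 had 132 counts in oWAT, 172 in sWAT, 83 in muscle and 51 in liver, and C1QTNF7 had 13, 35, 7 and 0. C1QC and C1QB, chains of complement C1q made by macrophages, had 39, 29, 3 and 16 counts and 20, 16, 3 and 8.

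Leptin's receptor and its signalling had 0 of 8 measured genes called. LEPR had 3 counts in oWAT, 12 in sWAT, 2 in muscle and 8 in liver, and oWAT was 0.242 times sWAT (0.0438 to 0.896). STAT3, the transcription factor downstream of the receptor, had 299 counts in oWAT, 254 in sWAT, 169 in muscle and 201 in liver. JAK2, the kinase bound to the receptor, had 45, 39, 23 and 9, and PTPN1, a phosphatase that restrains it, 48, 46, 17 and 11. LEPROTL1 had 31, 31, 21 and 10. JAK2 and PTPN1 were higher in both fat libraries than in muscle and liver by their values, with smallest folds of 1.94 (1.13 to 3.41) for JAK2 and 3.10 (1.74 to 5.77) for PTPN1, whose intervals reach below 2.

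For the transcription factors, 1 of 18 measured genes was called, PPARG, the partner of C/EBP alpha. PPARG had 32 counts in oWAT, 33 in sWAT, 7 in muscle and 0 in liver, and its smallest fold was 5.07 in oWAT over muscle (2.20 to 13.6). This call was lost with TMM scaling, with DESeq2's size factors and without the 10 most abundant genes in the totals. STAT5A had 84, 83, 34 and 4 counts and its lower bound was 1.82. SREBF1 had 51, 60, 71 and 67, and ZBTB16 75, 76, 194 and 59, with muscle the highest library. In the C/EBP family 0 of 2 measured genes were called: CEBPD had 24 counts in oWAT, 11 in sWAT, 7 in muscle and 9 in liver, and CEBPZ 19, 17, 23 and 22. CEBPB had 1 count in oWAT and 0 elsewhere, so CEBPA was not the only family member at or near 0.

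In the alternative pathway, on which adipsin acts, 0 of 5 measured genes were called in both fat libraries. C3, the protein the pathway cleaves, had 1050 counts in oWAT, 32 in sWAT, 6 in muscle and 4997 in liver. In oWAT it was 31.7-fold higher than in sWAT (22.3 to 46.7), while CFD lay in the other direction. MASP1, whose gene also encodes the protease that activates pro-adipsin, had 76, 85, 59 and 299 counts, and the regulators CD46 and CD55 had 77, 109, 31 and 55 and 57, 52, 72 and 16. MASP3 was searched as a separate name and had 0 counts.

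Of the fatty acid-binding proteins searched, FABP4 alone had counts in fat: FABP1, the liver form, had 26 counts in liver and 0 in the other 3 libraries, and FABP3, the heart and muscle form, 3 in muscle and 0 elsewhere. FABP5 had 0 counts in the 4 libraries. Other secreted products had 0 of 12 measured genes called. RBP4, which carries retinol, had 35 counts in oWAT, 72 in sWAT, 3 in muscle and 1063 in liver, GPX3 188, 220, 146 and 62, and AGT (angiotensinogen) 6, 0, 2 and 296. ITLN1 (omentin) had 964 counts in oWAT, 0 in sWAT, 0 in muscle and 5 in liver, at least 311-fold higher in oWAT than in sWAT (252). Markers of mesothelium, the cells known to make omentin, summed to 4042 CPM in oWAT with 7 of 8 counted, and to 5.21 CPM in sWAT with 1 of 8 counted. ITLN1 is itself among these 8 and gave 964 of the 1604 counts summed in oWAT, so the sum is not separate from it. Of the others, WT1 had 277 counts in oWAT and 0 in sWAT and MSLN 130 and 0, while CALB2 had 0 and 2.

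Of the relatives of SLC7A10, 0 of 6 measured genes were called. SLC7A8, another neutral amino acid transporter, had 29 counts in oWAT, 24 in sWAT, 24 in muscle and 16 in liver, and SLC7A2 had 11, 8, 30 and 120. SLC7A6 had 35, 19, 27 and 3, and SLC7A1 had 19, 13, 5 and 0. SLC3A2, the heavy chain with which SLC7A10 pairs at the membrane, had 3 counts in oWAT and 0 in the other 3 libraries.

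Among the 21 other adipocyte markers measured over the 4 libraries, 14 were called higher in both fat libraries, beside 233 of all 10127 genes measured in the same way. Their median log2 ratio was 2.84, close to the 3.09 of the 5 genes. LPL was 12.5-fold (10.98 to 14.3), LIPE 8.97-fold (7.28 to 11.2), CD36 8.28-fold (7.21 to 9.55) and PLIN1 7.27-fold (4.79 to 11.5) higher than muscle in the lower fat library. AQP7, the glycerol channel, was 11.6-fold higher than in liver (4.67 to 37.3). GYG2 was 10.2-fold higher than in muscle (4.38 to 28.9) and ACVR1C, an activin receptor, 11.9-fold higher than in liver (4.31 to 45.5). Against 0 counts in liver, CIDEC was at least 12.1-fold higher (9.32), LGALS12 at least 11.02-fold (8.40), CIDEA at least 6.08-fold (4.40) and ADIRF at least 4.18-fold (2.86). PLIN4 (5.67-fold), TRARG1 (4.98-fold) and PNPLA2 (4.43-fold) completed the called genes. With TMM scaling and with DESeq2's size factors 12 of the 14 remained called, without PNPLA2 and ADIRF. UCP1 and DIO2, genes of the thermogenic fat cell, had 0 counts in the 4 libraries.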

How the data were processed

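Full-length RNA libraries of oWAT, sWAT, muscle and liver, each from RNA of 5 monkeys pooled per the labels' protocols, were read on a PacBio Sequel II. Per the submitters' processing notes, minimap2 2.24 was used. Sources used here do not state filtering, gene assignment, strand use, genome build or annotation. No coordinates or sequences are printed. The deposited values are whole-number counts per gene, not normalized; unlisted genes were taken as 0. Tissues follow the labels, since 2 file names use other abbreviations. Counts naming no gene (19.5% of the file in oWAT, 16.6% in sWAT, 14.3% in muscle and 19.2% in liver) were left out of totals.

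Folds are ratios of CPM with exact 95% Clopper-Pearson intervals from the binomial share of 2 counts; levels have exact Poisson intervals; ratios of ratios have exact conditional intervals. Reads carry no molecular identifiers here, so intervals and floors cover counting error only. Likeness is the share of a profile that would have to move to another library to make 2 profiles equal, among symbols with at least 30 counts. A list gene was measured with at least 10 counts over the libraries compared. The 6 genes and the lists were chosen with earlier results of these data known. The text names the 6 genes, up to 4 genes per list (called genes first, then the most counted), the 3 nearest genes, and adipocyte markers with at least 10 counts in a fat library; other names were chosen after their values were seen. Of the 6 symbols, 6 match the RefSeq table.

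Alternatives were edgeR 4.0.16 TMM factors and DESeq2 1.42.0 size factors (scaling only; R 4.3.3), other totals, minimum counts of 1 and 20, bounds of 1 and 4, and a 99% interval. Sums of adipocyte and fibroblast markers as denominators were added after seeing the data. Python 3.11.15, NumPy 2.4.6, pandas 2.3.3, SciPy 1.17.1 and matplotlib 3.10.9 were used.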

Additional observations from a re-analysis of the deposited data

How the results depend on the processing

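The number of the 6 genes called higher in both fat libraries was 4 as reported. It was 2 (ADIPOQ and FABP4) with TMM factors, with DESeq2's size factors and with a bound of 4. It was 3 without the 10 most abundant genes in the totals (CFD lost) and with a 99% interval (CFD lost), 4 with unnamed counts in the totals or minimum counts of 1 or 20, and 5 with a bound of 1 (LEP gained). Over all genes the count of 233 became 68 with TMM, 71 with DESeq2's size factors, 1165 with a bound of 1, 43 with a bound of 4 and 154 with a 99% interval. In sWAT over oWAT the count of 46 became 70, 82, 539, 3 and 28 in the same order, and a bound of 1 called 3 of the 6 genes (ADIPOQ, CFD and FABP4). In oWAT over sWAT the count of 94 became 1059 with a bound of 1 and 33 with a bound of 4. In muscle over liver the count of 1338 became 2792 and 621, and ADIPOQ alone became 2 genes (with FABP4) with unnamed counts in the totals or a bound of 1; the split of 1338 higher in muscle to 873 higher in liver became 936 to 1077 with TMM and 938 to 1076 with DESeq2's size factors. Summed counts of the genes in muscle were 4.62% of oWAT and 3.62% of sWAT as reported, 6.83% and 4.83% with TMM, and 6.76% and 4.66% with DESeq2's size factors. Of the 15 nearest genes, 13 remained with TMM and 4 with distances of log2(CPM + 5), so the named neighbours depend on the measure. TMM and DESeq2's size factors shift every log2 ratio of oWAT to muscle by -0.56 and -0.55, and of oWAT to liver by -1.01 and -0.99. No paired analysis was possible because each tissue is 1 pooled library, and for the same reason no replicate could be left out. Depth limits LEP, CFD and SLC7A10, which had between 1 and 4 counts in muscle.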
